A study of Mus musculus with 8 samples.

Results

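Amacrine cells are the inhibitory and modulatory interneurons of the inner retina, and 9 genes that make, load, retrieve or relay their signals were examined. They were taken by gene name from the deposited tables, and each of the 9 was found once among 54532 genes. Gad1 and Gad2 encode the decarboxylases that make GABA, Slc32a1 the carrier that loads GABA and glycine into synaptic vesicles, and Slc6a9 the transporter that takes glycine back up. Chat and Slc18a3 encode the enzyme that makes acetylcholine and the carrier that loads it, Th the rate-limiting enzyme of dopamine synthesis, Calb2 the calcium-binding protein calretinin, and Gjd2 the connexin of neuronal electrical synapses. All 9 passed the filter on low counts.

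RNA was sequenced in 8 mouse retina libraries, 4 labelled sIVs (small intracellular vesicles, by the title of the series) and 4 labelled PBS, the control group. Replicates carried the numbers 1, 3, 4 and 5 in each group. The labels gave tissue and group alone, with no strain, age, dose, route, time or injury, and named no animals. Each p-value is thus set against the spread among these 8 libraries, which may be technical in part or whole.

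As background, most amacrine cells release either GABA or glycine, and a single vesicular carrier serves both. Starburst amacrine cells release acetylcholine together with GABA and shape direction selectivity. A sparse class uses dopamine to adjust the retina to light, and AII amacrine cells carry rod signals to cone pathways through electrical synapses. The genes are not exclusive to amacrine cells: horizontal cells also use Slc32a1, some ganglion cells express Calb2, and photoreceptors and bipolar cells express Gjd2. In these bulk samples, fewer cells of a type and less RNA per cell cannot be told apart.

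Of the 9 genes, 4 lay on chromosome 2 (mm10). They were Gad2 at 22622205 to 22693874, Gad1 at 70553072 to 70602014, Gjd2 at 114009601 to 114013619 and Slc32a1 at 158610767 to 158615748. Slc6a9 lay on chromosome 4 (117834506 to 117875198), Th on chromosome 7 (142892752 to 142931128) and Calb2 on chromosome 8 (110137502 to 110168210). Slc18a3 (chromosome 14, 32462438 to 32464850) lay inside Chat (32408203 to 32465989) on the same strand, the arrangement known as the cholinergic locus. Slc18a3 was a single exon of 2413 bases, and 0 of those bases were shared with an annotated exon of the 8 Chat transcripts. The other genes differed in build, from 2 exons in Slc32a1 and Gjd2 to as many as 17 in Gad1 and 16 in Gad2 and Chat.

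Sequence before the RefSeq start of 5 of the genes is shown. The results below turn on 2 pairs, Gad1 with Gad2 and Chat with Slc18a3, and Th is the single dopaminergic member. In Gad1, Gad2, Chat and Th the RefSeq start lay inside the span listed for the gene. The stretches shown for Gad1 and Th lay wholly inside it. The 250 bases before the RefSeq start (GRCm38.p6) were searched on both strands for the cyclic AMP response element TGACGTCA, the GC box GGGCGG, the E-box CAGCTG and TATAAA. Each line gives the stretch outside protein-coding exons, 5′ to 3′ on the gene's strand, with matches in capitals.
Gad1 (chr2:70561879-70562041, plus strand): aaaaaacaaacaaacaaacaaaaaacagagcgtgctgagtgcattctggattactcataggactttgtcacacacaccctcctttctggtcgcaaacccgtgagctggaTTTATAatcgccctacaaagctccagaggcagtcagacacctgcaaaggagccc
Gad2 (chr2:22622077-22622204, plus strand): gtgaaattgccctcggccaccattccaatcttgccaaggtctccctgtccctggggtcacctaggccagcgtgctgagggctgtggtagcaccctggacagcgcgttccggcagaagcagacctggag
Chat (chr14:32465990-32466159, minus strand): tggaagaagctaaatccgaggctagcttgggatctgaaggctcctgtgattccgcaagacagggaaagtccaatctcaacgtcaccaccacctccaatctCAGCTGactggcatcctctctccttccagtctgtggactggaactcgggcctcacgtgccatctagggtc
Slc18a3 (chr14:32464851-32465100, minus strand): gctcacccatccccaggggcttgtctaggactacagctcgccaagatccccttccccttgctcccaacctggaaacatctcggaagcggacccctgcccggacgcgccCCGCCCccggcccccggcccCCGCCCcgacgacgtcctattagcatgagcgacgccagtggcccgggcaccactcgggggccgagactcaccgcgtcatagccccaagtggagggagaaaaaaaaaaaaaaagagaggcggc
Th (chr7:142900015-142900245, minus strand): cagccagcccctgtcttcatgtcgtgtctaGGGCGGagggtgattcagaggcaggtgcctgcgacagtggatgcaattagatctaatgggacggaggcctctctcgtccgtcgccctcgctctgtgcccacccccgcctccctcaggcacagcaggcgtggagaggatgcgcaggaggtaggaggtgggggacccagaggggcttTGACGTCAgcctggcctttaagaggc

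The Th stretch held the cyclic AMP response element 45 bases before the start, a motif found in 1.55% of 32817 windows of the same length, and a GC box at 220 bases. Slc18a3 held 2 GC boxes on the reverse strand, at 122 and 142 bases, whereas the Chat stretch held none and had an E-box at 150 bases. GC boxes were found in 32.7% of all windows, the E-box in 13.0% and TATAAA in 12.4%. For Gad1, TATAAA stood on the reverse strand 141 bases before the RefSeq start. A GC box on the reverse strand stood 8 bases before the Gad1 start, in the part of its window that is not printed, and the Gad2 stretch held none of the 4 motifs. The Slc18a3 window held 21 CG dinucleotides against a median of 6 over all windows, and the Chat window held 8. The windows of Gad1, Gad2 and Th held 17, 13 and 13. Those of genes not shown held 33 for Gjd2, 12 for Slc32a1 and 8 to 10 for Slc6a9. These matches are a description of the letters, and factor binding was not measured.

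The 9 genes spanned a wide range of levels, compared as FPKM, a fragment count scaled to gene length and to library depth, from a mean over all libraries of 157 for Calb2 to 1.9 for Th. Calb2 was the highest, at 139 ± 3.57 FPKM (SD, n = 4) in PBS and 174 ± 74.8 FPKM (SD, n = 4) in sIVs retinas. Slc32a1 stood at 41.1 ± 1.65 and 45.2 ± 8.20 FPKM, Gad1 at 40.9 ± 1.55 and 41.2 ± 2.24 FPKM, and Gjd2 at 33.4 ± 1.55 and 33.5 ± 2.07 FPKM (SD, n = 4 each). Slc32a1 and Gad1 did not differ beyond their spread, since Slc32a1 was the higher in 4 of 8 libraries. The order between genes depends on the listed length by which FPKM divides. That was 7639 bases for Gad1, with 8 annotated transcripts, and 2797 for Slc32a1, with 1. Calb2 exceeded both, and Gad1 exceeded Gjd2, in all 8.

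Below these came Slc6a9 at 17.5 ± 2.28 and 13.3 ± 5.19 FPKM and Gad2 at 13.6 ± 1.2 and 11.1 ± 1.86 FPKM (PBS, then sIVs; SD, n = 4 each). The cholinergic pair was lower, with Slc18a3 at 6.10 ± 0.527 and 6.97 ± 1.31 FPKM and Chat at 2.75 ± 0.466 and 2.31 ± 0.812 FPKM. Th, which marks the sparsest of these cell classes, was last at 1.65 ± 0.295 and 2.14 ± 0.581 FPKM and rested on 41 to 104 counts per library. Slc6a9 exceeded Gad2, Gad2 exceeded Slc18a3, and Chat exceeded Th in 7 of 8 libraries each. The exception was sIVs replicate 4 every time.

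**Figure D1:**
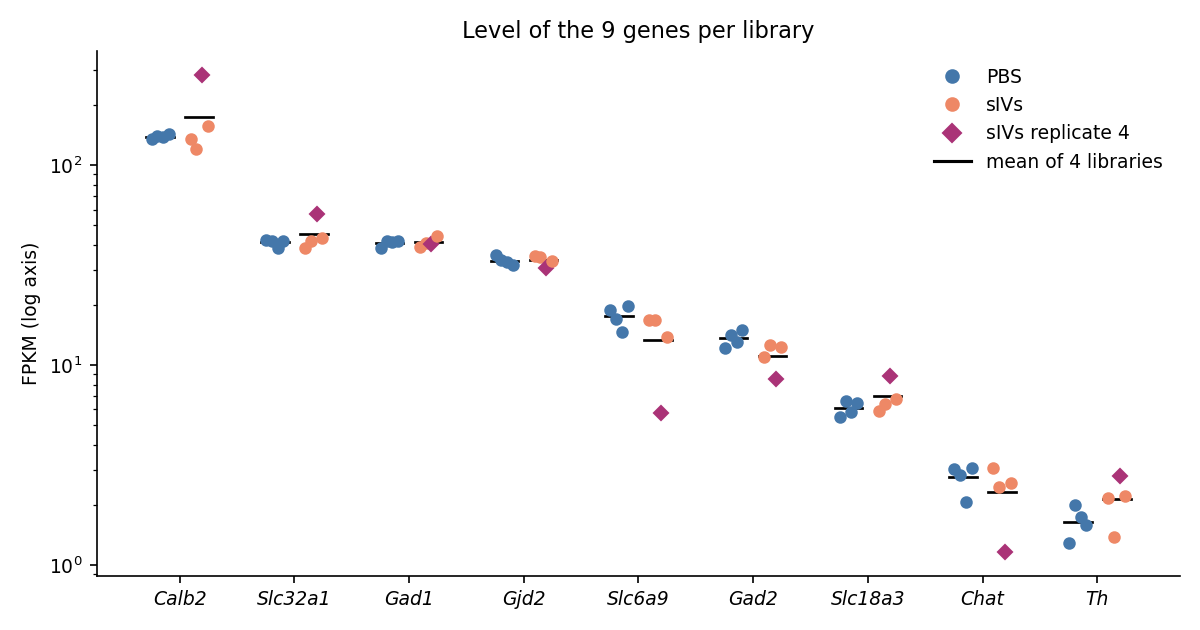
FPKM per library (log axis) of the 9 genes, ordered by mean, for 4 PBS and 4 sIVs libraries, with the mean of each group as a line and sIVs replicate 4 as a diamond. The diamond is the top point for Calb2, Slc32a1, Slc18a3 and Th and the bottom point for Gjd2, Slc6a9, Gad2 and Chat.

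Between sIVs and PBS retinas, none of the 9 genes passed the test. The edgeR quasi-likelihood test over 17004 genes called 0 genes at an adjusted p under 0.05 (0.0%) and 255 at an unadjusted p under 0.05 (1.5%). DESeq2 called 0 (322 unadjusted) and limma-voom with quality weights, which can give less weight to a library that stands apart, called 0 (455 unadjusted). None of the 9 had an unadjusted p under 0.05, and in none did the 4 sIVs libraries lie wholly above or below the 4 PBS libraries, which was so for 2.01% of all genes tested (1.08% with sIVs higher, 0.935% with sIVs lower). On the log2 fold scale 6 of the 9 lay above 0 and 3 below, with a median of 0.021. Over all genes tested the share that was positive was 51.3% and the median 0.0093.

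With every library included, Gad1 and Gjd2 had the smallest within-group SD (log2) of the genes examined, at 0.068 and 0.077. That ranking depended on sIVs replicate 4. In PBS libraries alone, Calb2 varied least (SD over mean 2.45%, against 3.78% for Gad1, 3.94% for Slc32a1 and 4.73% for Gjd2). Leaving sIVs replicate 4 aside, the largest departure of a library from the median of the rest was 0.087 for Gjd2, 0.115 for Slc32a1 and 0.124 for Gad1 (log2). In CPM (counts scaled to library size), Gad1 read 299, 325, 320 and 323 in PBS and 304, 316, 318 and 347 in sIVs replicates 1, 3, 4 and 5. The groups overlapped almost fully, and the log2 fold change was 0.021 (95% CI -0.19 to 0.23; edgeR adjusted p = 0.945). Gjd2 read 103, 98.4, 95.4 and 92.6 CPM in PBS and 104, 102, 90.7 and 97.6 CPM in sIVs, a log2 fold change of 0.015 (95% CI -0.18 to 0.21; edgeR adjusted p = 0.96). Log2 changes larger than 0.23 for Gad1 and 0.21 for Gjd2, in either direction, lay outside these intervals, which hold for this fit alone. With a gene-length trend removed from each library, a fit chosen after seeing the data, Gad1 was at 0.13 (95% CI -0.10 to 0.37). Gjd2 was at -0.072 (95% CI -0.34 to 0.20) in that fit. Gjd2 shares bases with the opposite-strand gene A530058N18Rik, so its level is uncertain to that extent. Of 13787 protein-coding genes at a mean of at least 1 CPM, 97.9% had a larger within-group SD (log2) than Gad1 and 96.7% a larger one than Gjd2. These shares mix genes of unlike depth and include sIVs replicate 4, so they describe spread and do not test regulation.

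Gad2 had the smallest p of the 9. It read 73.0, 84.8, 78.1 and 89.0 CPM in PBS replicates 1, 3, 4 and 5 and 65.9, 75.1, 51.1 and 73.7 CPM in the sIVs replicates. The sIVs values lay low, but sIVs replicates 3 and 5 exceeded the lowest PBS library. The log2 fold change was -0.29 (95% CI -0.60 to 0.017; edgeR adjusted p = 0.81), and -0.19 (95% CI -0.39 to 0.020) without sIVs replicate 4.

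Slc32a1 read 119, 119, 110 and 119 CPM in PBS and 110, 119, 164 and 124 CPM in sIVs retinas. Its log2 fold change of 0.15 (95% CI -0.15 to 0.44; edgeR adjusted p = 0.81) became 0.0093 without sIVs replicate 4, the one library clearly above the rest. Slc6a9, the glycinergic member, read 98.7, 88.7, 76.1 and 102 CPM in PBS and 88.1, 87.5, 30.5 and 72.7 CPM in sIVs. The low value was again sIVs replicate 4, and the log2 fold change of -0.39 (95% CI -1.04 to 0.26; edgeR adjusted p = 0.81) became -0.15 without it. Slc6a9 shares its span with the opposite-strand genes B4galt2 and Ccdc24, and neither labels nor tables record if strand entered the counting, so its level carries that uncertainty.

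The 2 genes of the cholinergic locus had differences of opposite sign, neither past the test. Chat read 14.5, 13.5, 9.86 and 14.5 CPM in PBS and 14.7, 11.7, 5.62 and 12.4 CPM in sIVs retinas (log2 fold change -0.24, 95% CI -0.86 to 0.38; edgeR adjusted p = 0.813). Slc18a3 read 13.5, 16.2, 14.2 and 15.9 CPM in PBS and 14.5, 15.6, 21.9 and 16.8 CPM in sIVs (log2 fold change 0.20, 95% CI -0.15 to 0.56; edgeR adjusted p = 0.81). In sIVs replicate 4 Chat was the lowest and Slc18a3 the highest of the 8 libraries. Without it the differences were -0.021 and 0.061. The spans of the genes overlap, but Slc18a3 shared 0 bases with annotated Chat exons. How the authors' counting assigned reads there was not given. Chat also overlaps the antisense gene Gm2990 (9 to 17 counts).

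Th read 3.09, 4.79, 4.16 and 3.78 CPM in PBS and 5.22, 3.33, 6.80 and 5.35 CPM in sIVs retinas. Of the sIVs libraries, 3 were above all PBS values and replicate 3 was below all but the lowest (log2 fold change 0.39, 95% CI -0.19 to 0.96; edgeR adjusted p = 0.81). Calb2 read 239, 247, 244 and 254 CPM in PBS and 239, 214, 508 and 282 CPM in sIVs (log2 fold change 0.34, 95% CI -0.22 to 0.90; edgeR adjusted p = 0.81). Without sIVs replicate 4, in which Calb2 stood far above every PBS value, its difference was -0.0079 (95% CI -0.23 to 0.21). Th was at 0.22 without it (95% CI -0.32 to 0.77), and at 0.017 under limma-voom with quality weights.

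**Figure D2:**
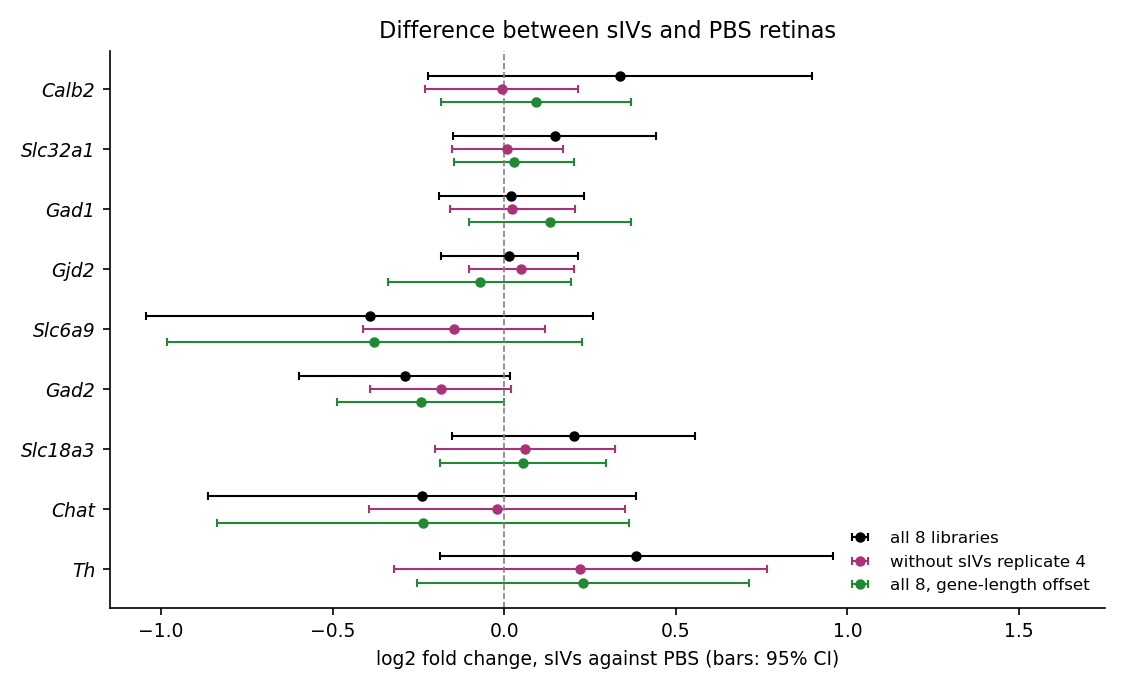
Log2 fold change of sIVs against PBS with 95% confidence intervals for the 9 genes, from all 8 libraries, without sIVs replicate 4, and with a gene-length offset. With all 8 libraries and without sIVs replicate 4, each of the 9 intervals includes 0, and the differences of Calb2, Slc32a1, Slc18a3 and Chat lie within 0.1 of 0 without sIVs replicate 4.

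Library sIVs replicate 4 stood apart across the transcriptome, and the 9 genes departed in it to differing degrees. Of all genes tested, 71.0% lay outside the range of the other 7 libraries there (35.7% above, 35.4% below), as did 8 of the 9 genes (4 above, 4 below). In PBS replicate 1, the next in rank, 35.5% of genes lay outside. Over 13787 protein-coding genes, the departure of sIVs replicate 4 from the median of the other 7 libraries had a Pearson's r of -0.564 with log2 gene length, a description across genes, which are not independent. The same r was -0.293 in sIVs replicate 5 and between 0.013 and 0.267 in the other 6. Markers of the pigment epithelium summed to 419 CPM in sIVs replicate 4 against 9.36 to 48.2 CPM elsewhere (6 of 9 markers tested, none of the 9 at 0 in every library). Rgr, Ttr, Rpe65, Rdh5 and Lrat were highest there. Pmel, at 1.9 CPM, was below PBS replicate 5 (4.2 CPM) and sIVs replicate 5 (2.4 CPM). The part of gene length or of these markers in the values of the 9 genes was not tested.

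The members that were high in sIVs replicate 4 were among the shorter ones. Calb2 (1743 bases) stood 1.06 log2 units above the median of the other libraries, Th (2364 bases) 0.69, Slc18a3 (2413 bases) 0.49 and Slc32a1 (2797 bases) 0.47. Coding genes from 2000 to under 3000 bases had a median departure of 0.487 in the same library, and those under 2000 bases one of 0.904, so these 4 genes sat near genes of their length. Gjd2 (2879 bases), at -0.12, did not, and lay below the lower quartile of 0.182 for coding genes from 2000 to under 3000 bases.

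The longer members spread more. Chat (4703 bases) departed by -1.25, Slc6a9 (5141 bases) by -1.52 and Gad2 (5876 bases) by -0.55, whereas coding genes from 4500 to under 6000 bases had a median of -0.136 and a lower quartile of -0.439. All 3 thus lay below the lower quartile of genes of their length. Gad1, the longest at 7639 bases, departed by -0.0062, above the upper quartile of -0.0926 for genes of 6000 bases and over. With a length trend removed from each library, an alternative chosen after the data were seen, the log2 fold changes of Calb2, Slc32a1 and Slc18a3 were 0.092, 0.027 and 0.054, while those of Slc6a9 and Chat stayed at -0.38 and -0.24. Gad2 was at -0.24 (95% CI -0.49 to -0.00097; edgeR adjusted p = 0.922).

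**Figure D3:**
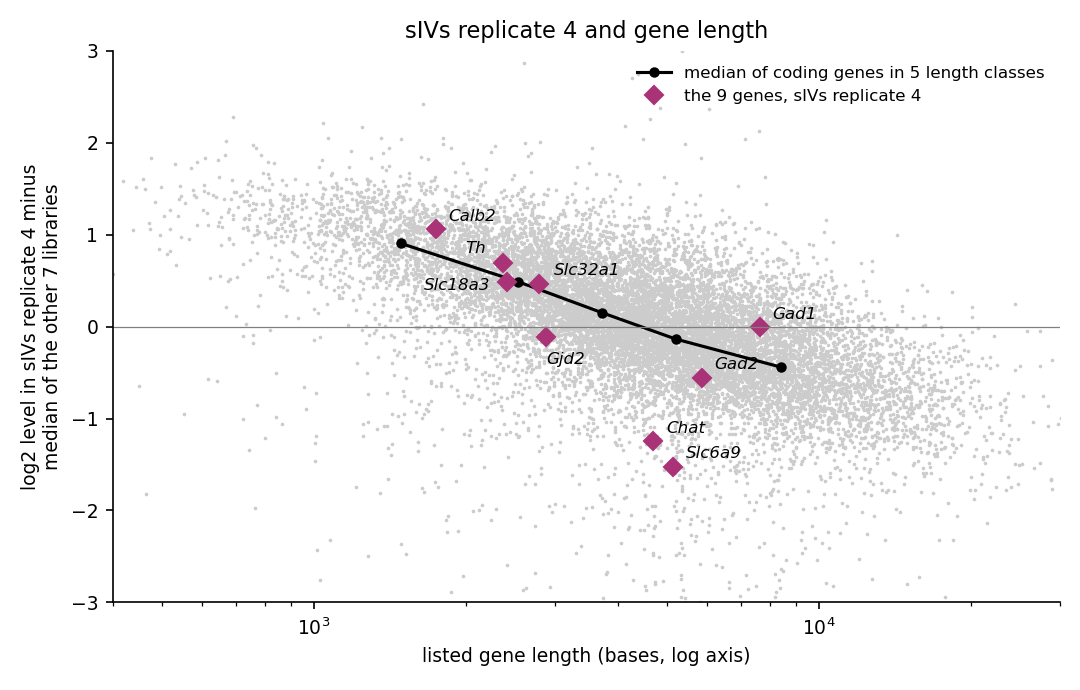
Departure of each protein-coding gene in sIVs replicate 4 from the median of the other 7 libraries (log2) against listed gene length (log axis), in grey (genes beyond the axes are not drawn), with medians of 5 length classes in black and the 9 genes as diamonds. Calb2, Th, Slc18a3 and Slc32a1 lie near the falling median, Gjd2, Chat, Slc6a9 and Gad2 below it and Gad1 above it.

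Ratios between 2 members in the same library do not depend on how libraries are scaled, so 4 were compared between the groups. A gene-length trend within a library does not cancel between members of unlike length. Its part in the ratios was not tested. The ratio of Gad2 to Gad1 per gene length was 0.318, 0.339, 0.318 and 0.358 in PBS replicates 1, 3, 4 and 5 and 0.282, 0.309, 0.209 and 0.277 in the sIVs replicates. Each sIVs library lay below each PBS library. The mean log2 ratio was -1.59 ± 0.0839 in PBS and -1.91 ± 0.243 in sIVs (SD, n = 4 each), a difference of -0.32 (two-sided exact permutation p = 0.0286, the smallest that 4 against 4 libraries allow). Adjusted over the 4 ratios it was 0.114, so the difference did not pass. Without sIVs replicate 4 the difference was -0.21 (exact permutation p = 0.0571, the smallest possible). Groups without overlap stay so when any library is left out, so that result adds no separate support. Both decarboxylases make GABA, Gad1 for the bulk of the cell's supply and Gad2 mainly at nerve endings.

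The other ratios overlapped between the groups. The ratio of Slc32a1 to Gad1 plus Gad2, the vesicular carrier against the enzymes, was 0.828, 0.746, 0.712 and 0.737 in PBS and 0.770, 0.782, 1.16 and 0.767 in sIVs (log2 difference 0.18; exact permutation p = 0.286, adjusted 0.371). The ratio of Slc6a9 to Slc32a1 was 0.450, 0.406, 0.377 and 0.470 in PBS and 0.436, 0.402, 0.101 and 0.319 in sIVs (log2 difference -0.63; exact permutation p = 0.171, adjusted 0.342). The ratio of Slc18a3 to Chat was 1.82, 2.33, 2.81 and 2.13 in PBS and 1.91, 2.60, 7.56 and 2.65 in sIVs (log2 difference 0.49; exact permutation p = 0.371, adjusted 0.371). In sIVs replicate 4 each of these 3 ratios lay outside the range of the other 7 libraries, and without it the differences were 0.034, -0.15 and 0.074.

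**Figure D4:**
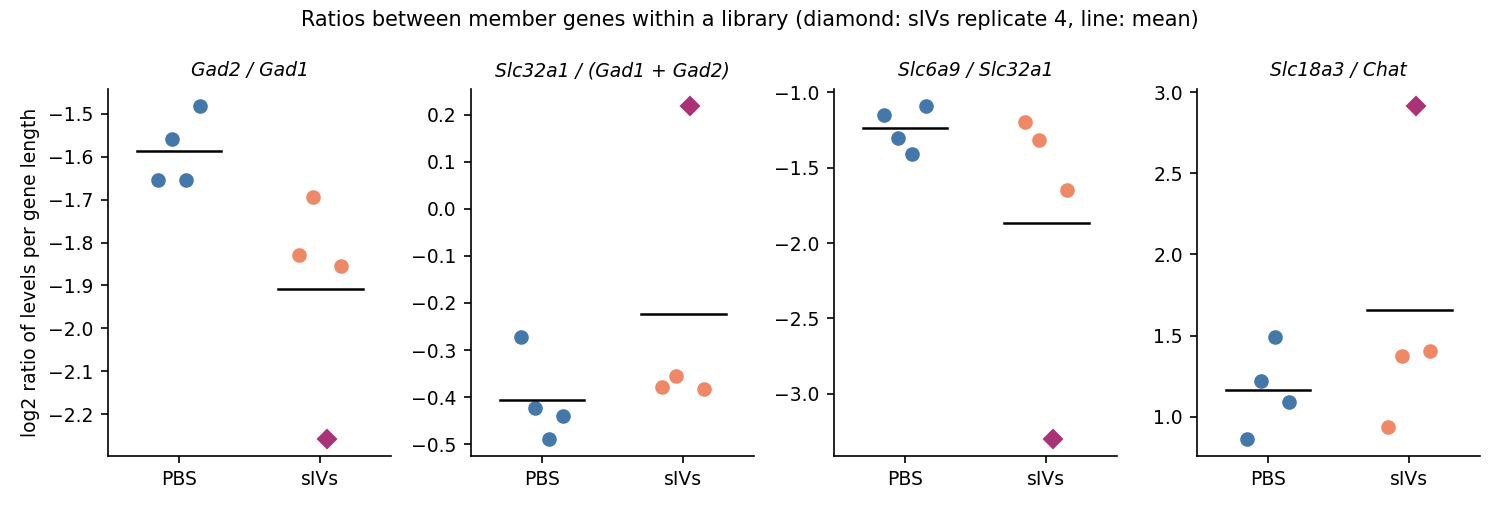
Log2 ratios per gene length of 4 pairs of member genes in each PBS and sIVs library, with the group mean as a line and sIVs replicate 4 as a diamond (the vertical scale differs between panels). The Gad2 to Gad1 ratio separates the groups without overlap; in the other 3 panels the sIVs points other than the diamond lie among or near the PBS points.

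Whether the 9 genes varied together was asked over all 36 pairs, with Pearson's r and Spearman's rho of log2 CPM across the 8 libraries, of which sIVs replicate 4 stands apart. After Benjamini-Hochberg adjustment 0 of 36 pairs passed (8 at an unadjusted permutation p under 0.05; lowest adjusted p = 0.202). The closest was Slc6a9 with Chat (r = 0.956, permutation p = 0.0104, adjusted 0.202; rho = 0.786, permutation p = 0.0279, adjusted 0.33). Leaving out the 2 libraries farthest from the Slc6a9 median, sIVs replicates 4 and 5, r was 0.84, and without sIVs replicate 4 alone it was 0.723.

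The 2 cholinergic genes had r = -0.793 (permutation p = 0.126, adjusted 0.244; rho = -0.357, permutation p = 0.389, adjusted 0.561). Without sIVs replicate 4 r was -0.0207, and without the 2 libraries farthest from the Chat median, sIVs replicate 4 and PBS replicate 4, it was -0.572, so the value depended on both. Gad1 and Gad2 had r = 0.222 (permutation p = 0.592, adjusted 0.627; rho = 0.548, permutation p = 0.171, adjusted 0.473), and 0.382 without sIVs replicate 4 and 0.467 without the 2 farthest libraries. Slc32a1 and Slc18a3, the 2 vesicular carriers, had r = 0.918 (permutation p = 0.0209, adjusted 0.202; rho = 0.619, permutation p = 0.115, adjusted 0.46), which was 0.595 without sIVs replicate 4 and 0.502 without the 2 farthest libraries.

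**Figure D5:**
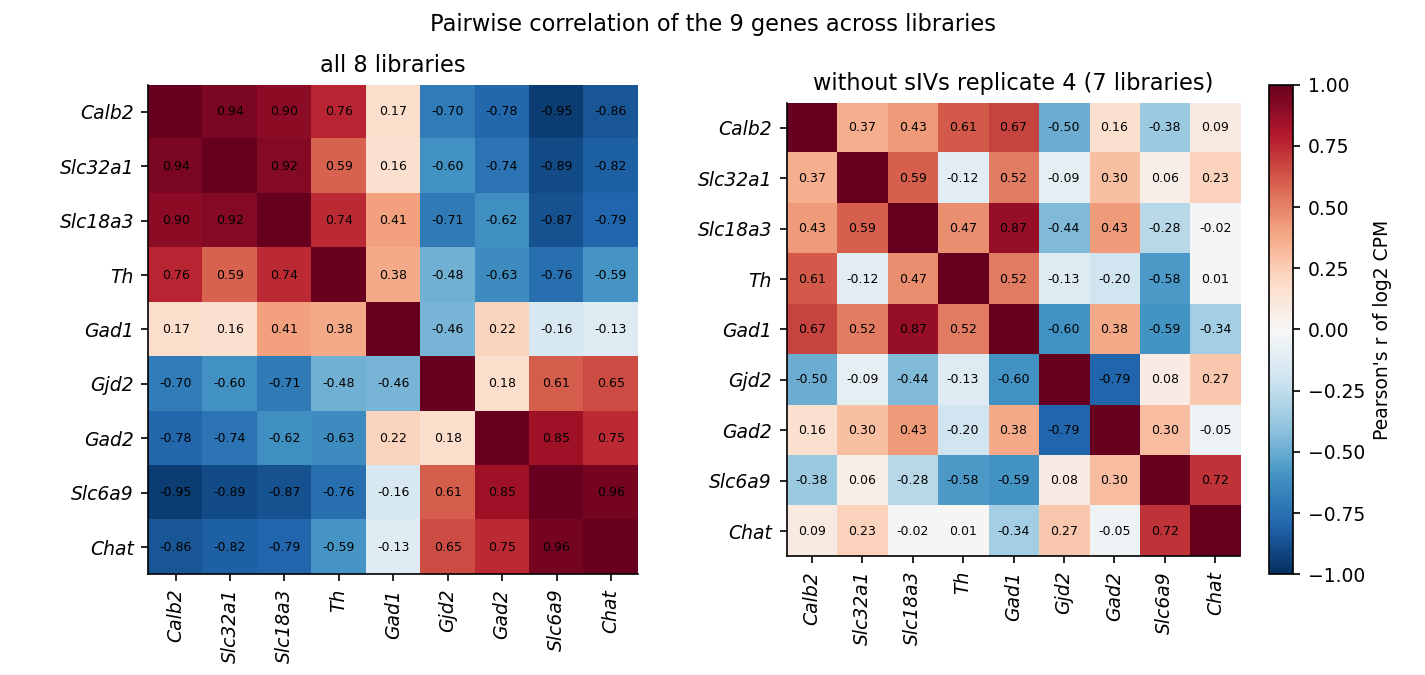
Pearson's r of log2 CPM between the 9 genes over all 8 libraries (left) and over 7 libraries without sIVs replicate 4 (right), on a colour scale from -1 to 1. On the left the genes high in sIVs replicate 4 form a block against Gad2, Slc6a9 and Chat, and on the right 27 of 36 values lie nearer 0, while those of Gad1 with each of the other 8 genes lie farther from it (0.868 with Slc18a3).

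Of 13786 other coding genes, the 2 whose profile over the 8 libraries was most like each member other than Th were listed as a description, without a test, since each is the extreme of a long search and all share sIVs replicate 4. Calb2 was nearest to Rtraf and Rpl8 (likeness, as Pearson's r, 0.998 and 0.996), Slc6a9 to Dscam and Snx30 (0.995 and 0.994), Slc32a1 to Xbp1 and Wrnip1 (0.994 and 0.988) and Slc18a3 to Phlda1 and Rnf4 (0.992 and 0.989). Chat was nearest to Cnnm2 and Dgkg (0.986 for the first), Gad2 to Mmp16 and Epha5 (0.985 and 0.982), Gjd2 to Fhod1 and Rbbp5 (0.979 and 0.967) and Gad1 to Pik3cg and Edem1 (0.963 and 0.962). Without sIVs replicate 4, r of these pairs ranged from 0.856 (Chat with Dgkg) to 0.974 (Calb2 with Rtraf). The pairs were still chosen with that library included.

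The neighbouring genes of these transmitter pathways did not pass either, at 0 of every list and 0.0% of all genes. All 8 genes for GABA and glycine transport and breakdown had negative log2 fold changes, with a median of -0.15 that was -0.044 without sIVs replicate 4. Abat, which breaks down GABA, averaged 158 ± 30.3 CPM over PBS libraries against 133 ± 22.8 CPM over sIVs libraries (SD, n = 4 each; log2 fold change -0.25 ± 0.17 SE; edgeR adjusted p = 0.81). Slc6a11, a GABA uptake transporter gene, had a log2 fold change of -0.15 ± 0.13 (SE). The values for Abat and Slc6a11 were -0.13 and -0.0575 without sIVs replicate 4.

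Of 14 genes for acetylcholine uptake, breakdown and reception, 2 lay above and 12 below 0 in log2 fold change (median -0.16, and -0.089 without sIVs replicate 4). Chrna4, a nicotinic receptor subunit gene, read 37.5 to 40.2 CPM in PBS and 24.5 to 36.9 CPM in sIVs, without overlap (log2 fold change -0.23 ± 0.14 SE; edgeR adjusted p = 0.81); 0.935% of all genes were likewise lower without overlap. The Chrna4 value was -0.12 without sIVs replicate 4. Chrm1, a muscarinic receptor gene, had a log2 fold change of -0.29 ± 0.16 (SE).

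Of 11 dopamine genes tested, 10 lay above and 1 below 0 in log2 fold change (median 0.14, and -0.0090 without sIVs replicate 4). Drd4, a dopamine receptor gene abundant in photoreceptors, averaged 311 ± 76.3 CPM over PBS libraries against 410 ± 138 CPM over sIVs libraries (SD, n = 4 each; log2 fold change 0.40 ± 0.25 SE; edgeR adjusted p = 0.81). Pts, of the pathway that makes the cofactor of Th, had a log2 fold change of 0.21 ± 0.15 (SE). Drd4 was at 0.14 and Pts at 0.092 without sIVs replicate 4. Of 5 gap junction and pannexin genes tested, 1 lay above and 4 below 0 (median -0.078, turning to 0.051 without sIVs replicate 4). Panx1, a pannexin gene, and Gjc1, a connexin gene of cone bipolar cells, had log2 fold changes of 0.15 ± 0.14 and -0.16 ± 0.16 (SE), which were 0.089 and -0.18 without that library.

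Markers of the cells themselves were present. Of 7 amacrine markers listed apart from the 9 genes, 6 were tested and 0 passed, with a median of -0.055, and their sum was 730 to 837 CPM in PBS and 632 to 764 CPM in sIVs retinas, lowest in sIVs replicate 4. Tfap2b and Pax6, transcription factor genes of amacrine cells, had log2 fold changes of -0.26 ± 0.14 and -0.12 ± 0.11 (SE), with Tfap2b at -0.15 without sIVs replicate 4. The 4 starburst markers were all negative (median -0.19, and -0.075 without sIVs replicate 4). Among them Megf10, a starburst cell surface receptor gene, had a log2 fold change of -0.23 ± 0.15 (-0.14 without that library) and Fezf1, a transcription factor gene, one of -0.26 ± 0.26 (SE). Of 3 AII markers, Prox1 had a log2 fold change of -0.26 ± 0.19 (-0.093 without sIVs replicate 4) and Nfia one of 0.17 ± 0.13 (SE). Both encode transcription factors, and the list median was -0.12 (-0.021 without sIVs replicate 4).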

How the data were processed

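The authors deposited raw counts per gene and FPKM values for the same 8 libraries, made by poly(A) selection with strand marking and read as 150 bp pairs per the labels' protocols. The build was mm10, per the submitters' processing notes. For the aligner, the counter and the use of strand, the tools were not given in the sources used here. The deposited FPKM equalled counts over listed gene length and library total times a constant of 0.943 to 1.03. Depth was 13803958 to 16622259 counts per library.

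Group and replicate came from the titles. Genes were kept by filterByExpr (17004 of 54532), scaled by TMM and tested with edgeR 4.0.16 (R 4.3.3), quasi-likelihood F test, two-sided, group alone as term, with Benjamini-Hochberg adjustment over all genes tested at 0.05. SE is the absolute log2 fold change over the square root of F, and 95% intervals use it, so both are approximate. Ratios added 0.5 count per gene and used exact permutation over 70 arrangements (Python 3.11.15). Alternatives used DESeq2 1.42.0, limma 3.58.1 (voom with quality weights), other scalings and filters, FPKM, a replicate block and left-out libraries. The tests were checked on simulated data.

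The members and lists were chosen with earlier results of these data known. Named genes were the 9 members, the 2 of smallest p in each transmitter and amacrine list (any past the threshold first) and the 2 genes most alike each member. The genes most alike Th are not reported here.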

Additional observations from a re-analysis of the deposited data

Results flagged for a closer look

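For the 27 genes and 4 ratios named, each group of 4 libraries was searched for a library far from the other 3 (gap over range above Dixon's 95% critical value for 4 samples), 62 groups in all. Chance alone marks about 1 in 20 groups, and 4 were marked. The ratio of Slc32a1 to Gad1 plus Gad2 was 1.16 in sIVs replicate 4, above the other sIVs libraries (0.767 to 0.782). Slc32a1 was lowest among PBS libraries in replicate 4, at 109.8 CPM. Abat was lowest among sIVs libraries in replicate 4, at 99.2 CPM. Chrm1 was highest among sIVs libraries in replicate 5, at 7.62 CPM.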

How the results depend on the processing

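The count of genes past the threshold stayed at 0 under every alternative (DESeq2 with a lowest adjusted p of 0.104, limma-voom with quality weights, 2 other scalings, 2 other filters, FPKM with pseudocounts of 1 and 0.1, replicate block, left-out libraries, length offset). All 9 genes kept an adjusted p of at least 0.577. The lower Gad2 to Gad1 ratio ranged from -0.393 to -0.206 with each library left out, where 4 against 3 cannot pass. With the replicate block (sign flips over replicate numbers) it was -0.322 (exact p = 0.125, the smallest possible). The Slc6a9 to Slc32a1 and Slc18a3 to Chat ratios kept 1 sign in all 4 numbers (exact p = 0.125 each), and Slc32a1 to Gad1 plus Gad2 had exact p = 0.5. Pairing was looked for by correlating deviations from the group means (log2 CPM) across genes between same-numbered libraries. Pearson's r was 0.596, 0.0246, 0.227 and 0.514 for numbers 1, 3, 4 and 5, so the numbers were not taken to pair them. Of the 8 libraries, 6 correlated best in these deviations with their own number, a hint from the data and not the design. The block moved unadjusted calls from 255 to 588. The count of correlated pairs was 1 without PBS replicate 1 and 0 without each other library.

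Some signs turned, of values near 0 in all 8 libraries (Gad1, Gjd2) and of larger ones (Pvalb 0.47, Calb2 0.34, Chat -0.24, Pts 0.21). Under limma-voom with quality weights Gad1 was -0.0060, Calb2 -0.049 and Pvalb -0.115. Without both PBS replicate 1 and sIVs replicate 4, Gad1 was -0.00031, Calb2 -0.019, Chat 0.031, Pts -0.0063, Pvalb -0.089 and Gjd2, of unturned sign, 0.082. With the length offset, chosen after seeing the data, Gjd2 was -0.072 and Pax6 0.097. With each library left out in turn Gad1 ranged from -0.0185 to 0.043, Gjd2 from -0.0132 to 0.050, Chat from -0.409 to -0.021, Pts from 0.092 to 0.271, Calb2 from -0.0079 to 0.48 and Pvalb from -0.064 to 0.656. The cause was not tested. At 41 to 104 counts per library, Th had the least depth of the 9.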

Other observations

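Genes for amacrine peptides and other transmitters had 9 of 10 members tested, 0 past the threshold, and 5 above and 4 below 0 in log2 fold change (median 0.18, and -0.018 without sIVs replicate 4). Cck, a neuropeptide gene, read 6.49, 9.59, 8.85 and 8.41 CPM in PBS and 9.51, 8.08, 23.5 and 12.7 CPM in sIVs replicates 1, 3, 4 and 5 (log2 fold change 0.69 ± 0.32 SE; edgeR adjusted p = 0.81). Npy, which encodes neuropeptide Y, had a log2 fold change of 0.45 ± 0.30 (SE). Without sIVs replicate 4 Cck was at 0.27 and Npy at 0.21. Of 5 calcium-binding marker genes, 4 lay above and 1 below 0 in log2 fold change (median 0.20, and -0.015 without sIVs replicate 4). Pvalb, which encodes parvalbumin, read 9.28 to 10.7 CPM in PBS and 8.15, 8.15, 26.4 and 12.0 CPM in sIVs replicates 1, 3, 4 and 5, and Rcvrn, the photoreceptor recoverin gene, had a log2 fold change of 0.39 ± 0.24 (SE). The values were -0.064 for Pvalb and 0.15 for Rcvrn without sIVs replicate 4.

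Horizontal cell markers, which come from cells that also use Slc32a1, summed to 93.6 to 117 CPM in PBS libraries and 147 CPM in sIVs replicate 4 (4 of 6 listed symbols in the table). Of that sum Calb1 held 132 CPM, and the other 3 markers were lower there than the median of the other libraries (differences of -0.43 for Lhx1, -0.58 for Onecut2 and -3.40 for Onecut1, log2), with a list median of -0.51. The ganglion cell markers, from cells that can express Calb2, summed to 772 to 805 CPM in PBS and 741 to 999 CPM in sIVs libraries. Both sums were highest in sIVs replicate 4. Of the ganglion cell list, Thy1, Sncg, Nefl, Rbpms, Pou4f2 and Pou4f3 stood above the median of the other libraries there. Nefm, Slc17a6 and Pou4f1 stood below it (list median 0.275, log2). The processed pseudogene of Gad1 on chromosome 10 (99444044 to 99445819) held 0 to 4 counts, against 3964 to 5628 for Gad1.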
